A study of Homo sapiens with 4 samples.

Results

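Of 49397 autosomal 1 kb tiles measured in all 4 libraries of the study, 302 gained DNA methylation in a naive library of the H9 human embryonic stem cell line. A tile was a fixed 1 kb stretch of hg19 with at least 5 cytosines of CpG sites that had at least 5 reads in every library, and its level was the mean over those cytosines of methylated reads divided by all reads. A tile counted as gained where its level in the naive library exceeded that of the primed library of the same genotype by at least 25 percentage points and at least 80% of its cytosines were higher. The tiles were thus chosen by the naive and primed levels themselves, so their gains are a description and carry no test. By this rule 80 tiles gained in the KO cells (0.162% of all tiles) and 249 in the WT cells (0.504%). Both genotypes shared 27 of them, leaving 53 gained in KO only and 222 gained in WT only.

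The libraries were KO naive (B3GALT5-/- H9 cells in the naive state in 2iLAF medium), KO primed (B3GALT5-/- H9 cells in basal medium), WT naive (wild-type H9 cells in the naive state in 5iLAF medium) and WT primed (wild-type H9 cells in basal medium). The B3GALT5 enzyme adds galactose during the synthesis of glycosphingolipids. Each group was 1 library of bisulfite-converted, captured DNA, so the differences have no replicate check, and whether the knockout was 1 clone or several is not given in the sources used here. Between the naive libraries the genotype and the medium differed together and cannot be told apart.

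In mammalian cells methyl groups are placed on the cytosine of CpG dinucleotides by the DNA methyltransferases, and at CpG-rich gene starts a high level usually goes with a silent gene. Primed human embryonic stem cells resemble the epiblast after implantation and carry highly methylated DNA outside such CpG-rich starts. Naive cells, grown in media that hold kinase inhibitors, resemble the epiblast before implantation and are known for loss of methylation over most of the genome. Regions that move the other way are the exception within that background.

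The loss over the genome was large here too. Of all 49397 tiles, 36.5% were lower by at least 25 points in KO naive than in KO primed cells by the same rule turned round, and 38.6% were lower in WT naive than in WT primed cells. The tile median was 62.6% in KO naive and 87.5% in KO primed cells, and 60.1% in WT naive and 86.3% in WT primed cells. The deposited tables listed 1955982 to 2257287 autosomal cytosines per library at a median of 7 to 13 reads, and 876973 cytosines passed in all 4. At these the median depth was 21 reads in KO naive, 14 in KO primed, 13 in WT naive and 13 in WT primed cells. The gained tiles rested on 49985, 40751, 31509 and 39277 reads in KO naive, KO primed, WT naive and WT primed cells. A cytosine was listed only with at least 1 methylated read, so levels near 0 were not seen and low levels are raised by that selection.

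Of the 24 matched promoter windows at gained tiles, 12 had at least 4 CpGs measured inside the tile. Of these 7, picked after their values were seen, are shown so that the measured bases can be read in their sequence. Not every measured base was itself higher in the naive library. Promoter sequences of RefSeq (250 bases before to 50 after a transcript start) were matched to the deposited hg19 positions by the spacing of their CpGs. The sequences and the following coordinates are RefSeq's, on GRCh38.p14: UQCC1 chr20:35411924-35412223 (minus strand), HOXA3 chr7:27122323-27122622 (minus strand), BARHL1 chr9:132582356-132582655 (plus strand), LRRC20 chr10:70381517-70381816 (minus strand), DUOX2 chr15:45114123-45114422 (minus strand), LTC4S chr5:179793736-179794035 (plus strand) and PRKAR1B chr7:712891-713190 (minus strand). Each is written 5′ to 3′ along the gene, and the capitals mark the CpGs measured in all 4 libraries within the gained tile.
UQCC1: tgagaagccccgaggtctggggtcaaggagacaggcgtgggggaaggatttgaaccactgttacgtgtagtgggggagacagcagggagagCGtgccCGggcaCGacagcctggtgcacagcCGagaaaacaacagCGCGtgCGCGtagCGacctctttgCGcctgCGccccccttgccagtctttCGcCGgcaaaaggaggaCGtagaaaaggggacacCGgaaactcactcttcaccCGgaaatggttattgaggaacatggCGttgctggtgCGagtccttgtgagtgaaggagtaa
HOXA3: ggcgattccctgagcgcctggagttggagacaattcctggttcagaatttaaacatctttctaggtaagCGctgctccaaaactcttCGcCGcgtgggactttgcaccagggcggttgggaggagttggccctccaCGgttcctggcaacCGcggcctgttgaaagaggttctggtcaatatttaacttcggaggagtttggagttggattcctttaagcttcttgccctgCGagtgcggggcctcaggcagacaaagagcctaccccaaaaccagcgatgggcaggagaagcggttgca
BARHL1: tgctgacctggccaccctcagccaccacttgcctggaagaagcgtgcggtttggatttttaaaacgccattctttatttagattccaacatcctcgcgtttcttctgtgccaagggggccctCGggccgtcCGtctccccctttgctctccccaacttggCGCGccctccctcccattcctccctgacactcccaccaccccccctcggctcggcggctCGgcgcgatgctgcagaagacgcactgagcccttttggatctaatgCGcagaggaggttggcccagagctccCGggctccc
LRRC20: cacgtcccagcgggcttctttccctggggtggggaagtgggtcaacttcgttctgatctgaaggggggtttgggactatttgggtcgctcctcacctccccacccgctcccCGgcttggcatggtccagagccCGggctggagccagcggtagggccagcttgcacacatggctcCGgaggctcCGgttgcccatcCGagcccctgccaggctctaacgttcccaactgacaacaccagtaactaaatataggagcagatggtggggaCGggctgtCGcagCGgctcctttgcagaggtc
DUOX2: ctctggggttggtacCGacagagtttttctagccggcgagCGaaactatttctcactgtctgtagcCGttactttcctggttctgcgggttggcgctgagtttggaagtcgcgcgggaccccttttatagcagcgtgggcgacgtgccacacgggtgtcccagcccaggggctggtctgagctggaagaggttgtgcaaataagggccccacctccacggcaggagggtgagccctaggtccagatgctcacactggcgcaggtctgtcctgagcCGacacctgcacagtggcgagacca
LTC4S: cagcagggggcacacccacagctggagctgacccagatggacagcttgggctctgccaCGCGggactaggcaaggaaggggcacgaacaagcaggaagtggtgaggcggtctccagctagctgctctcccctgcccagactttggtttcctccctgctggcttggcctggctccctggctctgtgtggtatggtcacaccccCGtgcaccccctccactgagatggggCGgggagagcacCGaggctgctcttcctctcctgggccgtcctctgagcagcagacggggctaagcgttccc
PRKAR1B: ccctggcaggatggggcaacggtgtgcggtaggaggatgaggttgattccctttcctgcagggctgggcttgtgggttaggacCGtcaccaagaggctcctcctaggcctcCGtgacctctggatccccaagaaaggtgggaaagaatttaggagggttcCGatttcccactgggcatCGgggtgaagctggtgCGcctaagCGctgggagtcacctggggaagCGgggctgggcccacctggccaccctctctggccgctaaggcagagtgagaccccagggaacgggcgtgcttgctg
In the UQCC1 sequence 18 of 21 CpGs were measured, and in the HOXA3 sequence 6 of 15. The measured CpGs of LRRC20 numbered 8, those of BARHL1 and PRKAR1B 7 each, those of LTC4S 5 and those of DUOX2 4. The 24 matched promoter sequences at gained tiles held a median of 15 CpGs at 61.5% GC, beside 21 CpGs and 63% GC over all 4188 matched promoters and 14 CpGs and 58.7% GC over the 35116 promoters of the table.

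The tiles gained in both genotypes stood at intermediate naive levels and low primed levels. Their median was 51.0% in KO naive and 18.1% in KO primed cells, and 64.3% in WT naive and 21.6% in WT primed cells. The median KO primed minus WT primed difference was −0.91 points, and 19 of the 27 (70.4%) lay within 10 points, beside 75.6% of all tiles. The tiles gained in KO only had medians of 71.6% in KO naive, 32.9% in KO primed, 62.1% in WT naive and 50% in WT primed cells. The tiles gained in WT only had medians of 45.0% in KO naive, 46.7% in KO primed, 64.9% in WT naive and 29.998% in WT primed cells.

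**Figure D1:**
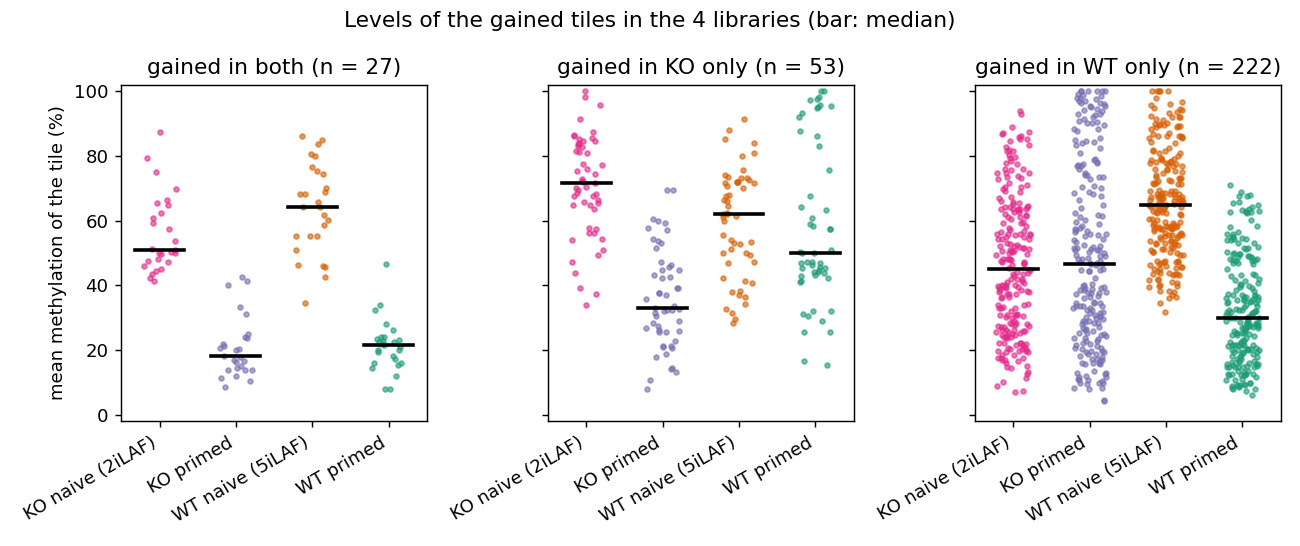
Mean methylation (%) of each gained tile in KO naive, KO primed, WT naive and WT primed cells, for tiles gained in both genotypes, in KO only and in WT only; points are tiles with horizontal jitter and bars are medians. In the tiles gained in both, all primed points lie below 50% while the naive medians are 51.0% in KO and 64.3% in WT cells; in the tiles gained in one genotype the primed library of the other genotype spreads up to 100%.

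The primed level of the other genotype differed from that of the gaining genotype in many tiles. Over the 80 tiles gained in KO the median KO primed minus WT primed difference was −11.9 points, and 18 tiles were lower in KO primed by at least 25 points. Over the 249 tiles gained in WT it was 11.9 points, and 76 tiles were higher in KO primed by at least 25 points. Over all tiles the median was 0.67 points, with 399 tiles lower and 836 higher in KO primed by that amount. These primed levels are part of the gain that chose the tiles, so the direction of the difference is not independent of the choice. In the naive state the KO minus WT difference had a median of 2.60 points over the tiles gained in KO and −18.3 points over those gained in WT, beside 0.86 points over all tiles.

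The gain that chose a tile in one genotype was computed without the levels of the other genotype, although the other libraries had to list each cytosine with at least 5 reads, of which at least 1 was methylated. At the 249 tiles gained in WT, KO naive was above KO primed in 130 (52.2%, Wilson 95% interval 46.0 to 58.3), with a median difference of 0.87 points and an interquartile range of −12.9 to 13.7. The share depended on the processing: it was 68.4% with a median of 7.15 points over the 98 tiles gained at 10 or more reads, and 71.1% with a median of 7.48 points over the 589 gained with unlisted cytosines filled in at 0. With 5 reads drawn per cytosine it was 46.7% with a median of 0 points over the 225 tiles gained. Over all tiles KO naive was above KO primed in 4.93%, with a median difference of −20.3 points. The KO difference was at least 25 points in 28 of the 249 and at most −25 points in 23. At the 80 tiles gained in KO, WT naive was above WT primed in 60 (75%, interval 64.5 to 83.2), with a median of 19.5 points and an interquartile range of 0.52 to 33.0. It was 88.1% over the 42 gained at 10 or more reads, and 58.9% with a median of 7.75 points over the 90 gained with 5 reads drawn per cytosine. Over all tiles WT naive was above WT primed in 8.6%, with a median of −20.6 points. The WT difference was at least 25 points in 33 of the 80 and at most −25 points in 8. Intervals here and below cover counting error over tiles only, and whether the 52.2% and the 75% differ was not tested.

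**Figure D2:**
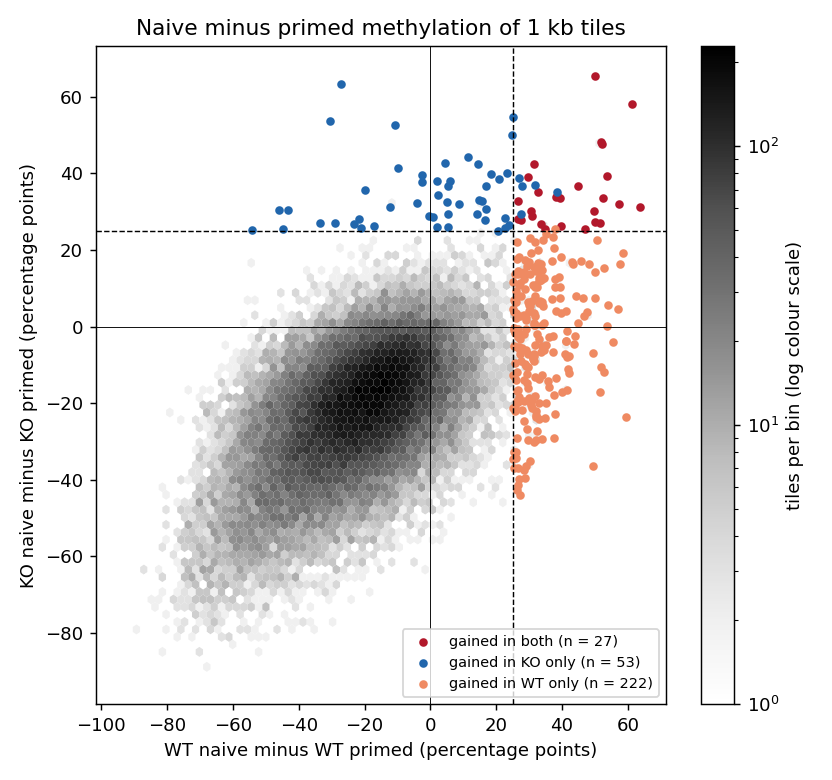
KO naive minus KO primed (vertical axis, percentage points) against WT naive minus WT primed (horizontal axis) for all 49397 tiles in grey bins (log colour scale), with the gained tiles as points and dashed lines at 25 points. The bulk lies below and left of 0, the 27 tiles gained in both sit at upper right, and points of the 1-genotype groups past both lines missed the 80% of cytosines in the other genotype.

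Most gained tiles were low in the primed library: 58 of the 80 gained in KO were below 40% in KO primed cells, and 182 of the 249 gained in WT were below 40% in WT primed cells. Of tiles below 20% in KO primed cells 3.90% gained in KO, and of those at 20 to 40% 1.76% did (a tile at 80% or above cannot rise by 25 points). Of tiles below 20% in WT primed cells 11.4% gained in WT, of those at 20 to 40% 5.22%, and of those at 60 to 80% 0.177%. These shares use the primed level that is also in the gain. Among all 2784 tiles below 40% in WT primed cells, KO naive was above KO primed in 24.5%, with a median difference of −7.41 points. Among the 182 of them that gained in WT it was above in 112 (61.5%), with a median of 5.45 points. Among all 2609 tiles below 40% in KO primed cells WT naive was above WT primed in 39.1%, and among the 58 that gained in KO in 52 (89.7%).

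Cytosines of the same tiles that the rule had left out gave a reading of the same tiles at other bases. A library of the other genotype had listed them with under 5 reads or not at all. Since a cytosine without a methylated read is not listed, some may be unmethylated there rather than poorly covered. In the tiles gained in KO, 64 had such cytosines (340 in all), and KO naive was above KO primed in 50 (78.1%, interval 66.6 to 86.5). Their median level was 58.2% in KO naive and 22.2% in KO primed cells, while over all 33216 tiles with such cytosines 13.6% were higher. In the tiles gained in WT, 129 had such cytosines (434 in all), and WT naive was above WT primed in 115 (89.1%, interval 82.6 to 93.4). Their median level was 45.9% in WT naive and 17.6% in WT primed cells, and over all 17961 such tiles 22.4% were higher. All tiles are mostly high in primed cells, so tiles below 40% there are the closer comparison. Below 40% in KO primed cells, 34.3% of all such tiles were higher in KO naive, and 91.5% of those gained in KO. Below 40% in WT primed cells, 57.0% of all such tiles were higher in WT naive, and 92.5% of those gained in WT. These bases come from the same libraries and can lie on the same DNA fragments as the chosen ones, so they say nothing of another culture.

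Reads at each cytosine were tested one by one, naive against primed, with Fisher's exact test (two-sided), Benjamini-Hochberg adjusted over all 876973 cytosines; it compares 2 libraries and not the conditions. A cytosine was called at an adjusted p under 0.05 and at least 25 points. Over all cytosines 0.243% were called higher in KO naive and 18.2% lower, and 0.44% were called higher in WT naive and 16.3% lower. In the genotype that chose them, 208 of 639 cytosines (32.6%) of the tiles gained in KO and 419 of 1886 (22.2%) of the tiles gained in WT were called higher, which the rule favours. In the other genotype, 129 of the 1886 cytosines (6.84%) of the tiles gained in WT were called higher in KO naive and 82 (4.35%) lower. Of the 639 cytosines of the tiles gained in KO, 111 (17.4%) were called higher in WT naive and 13 (2.03%) lower. The test takes reads as independent, and the variance between the 2 strands of a CpG was 2.35 to 3.81 times that of independent reads. This ratio was taken at CpGs of intermediate level read on both strands, 63436 to 165850 per library. As 84.8% of members had minus-strand cytosines alone, whether it holds at their cytosines was not tested. With the reads scaled down by that ratio Fisher's exact test with Benjamini-Hochberg adjustment called 0 cytosines higher in the chosen tiles. Over all 876973 cytosines it called 1 higher in KO naive and 1 in WT naive, so higher calls were nearly absent everywhere. Lower calls with the scaled reads were not counted. The scaling leaves few reads per cytosine for a test adjusted over all of them, so 0 calls cannot show that a cytosine was unchanged. In the chosen tiles 59 of 639 cytosines in KO and 110 of 1886 in WT were higher with an unadjusted Fisher p under 0.05. The matching count over all cytosines was not made.

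Among the 4 tiles gained in both genotypes with at least 10 cytosines, chr17:4763001-4764000 had the largest gain in each genotype. It stood at 79.3% ± 14.5 in KO naive and 13.9% ± 7.34 in KO primed cells, and at 68.2% ± 19.1 in WT naive and 18.1% ± 12.5 in WT primed cells (SD over its 17 cytosines, here and below over the cytosines of a tile). All 17 cytosines were higher in the naive library of each genotype, and 15 in KO and 9 in WT were called. Here and for the tiles below, the calls use the values that chose the tile. None remained with the scaled reads, which leave little depth for a call. Single cytosines spanned 47.4 to 94.7% in KO naive and 3.03 to 28% in KO primed cells, without overlap, and 36.4 to 94.4% in WT naive and 4 to 55.6% in WT primed cells, with overlap. The nearest matched start was that of ENO3, the muscle enolase of glycolysis, 89847 bases away, and the tile could not be placed in a gene here.

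The other 3 gained less, at similar primed levels. The tile chr4:3372001-3373000 began 76 bases downstream of a matched start of RGS12, a regulator of G-protein signalling. It stood at 53.9% ± 12.7 in KO naive and 19.9% ± 12.5 in KO primed cells, and at 58.8% ± 13.1 in WT naive and 20.8% ± 13.4 in WT primed cells (11 cytosines). The tile chr7:155255001-155256000 lay 5188 bases upstream of a matched start of EN2-DT, a divergent transcript of the homeobox gene EN2. It stood at 44.6% ± 18.4 in KO naive and 17.9% ± 12.9 in KO primed cells, and at 55.3% ± 22.9 in WT naive and 21.6% ± 8.87 in WT primed cells (12 cytosines). The tile chr20:61927001-61928000, 59744 bases from the start of BIRC7, an inhibitor of apoptosis, stood at 50.002% ± 17.1 in KO naive and 23.8% ± 25.5 in KO primed cells, and at 65.7% ± 18.99 in WT naive and 26.1% ± 18.6 in WT primed cells (13 cytosines). In all 4 tiles the measured cytosines lay on the minus strand.

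Other tiles gained in both were singled out after their values were seen. The tile chr22:19751001-19752000, 6775 bases downstream of a matched start of TBX1, a T-box transcription factor of pharyngeal and heart development, had the second largest KO gain of these. Its 9 cytosines averaged 66.5% in KO naive and 8.5% in KO primed cells, and 68.9% in WT naive and 7.81% in WT primed cells, and 8 of them were called in each genotype. The tile chr22:49192001-49193000 had the largest WT gain of all, at 63.6 points. Its 5 cytosines averaged 62.5% in KO naive and 31.2% in KO primed cells, and 83.6% in WT naive and 20.02% in WT primed cells. A tile 27751 bases upstream of the start of HAND2-AS1, a transcript beside the heart transcription factor gene HAND2, averaged 61.0% in KO naive and 21.9% in KO primed cells, and 45.6% in WT naive and 16.1% in WT primed cells. None of its 8 cytosines was called in either genotype. A tile 1655 bases downstream of the start of CRYAA, a crystallin of the lens, averaged 69.7% in KO naive and 42.5% in KO primed cells, and 70.03% in WT naive and 20.1% in WT primed cells.

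**Figure D3:**
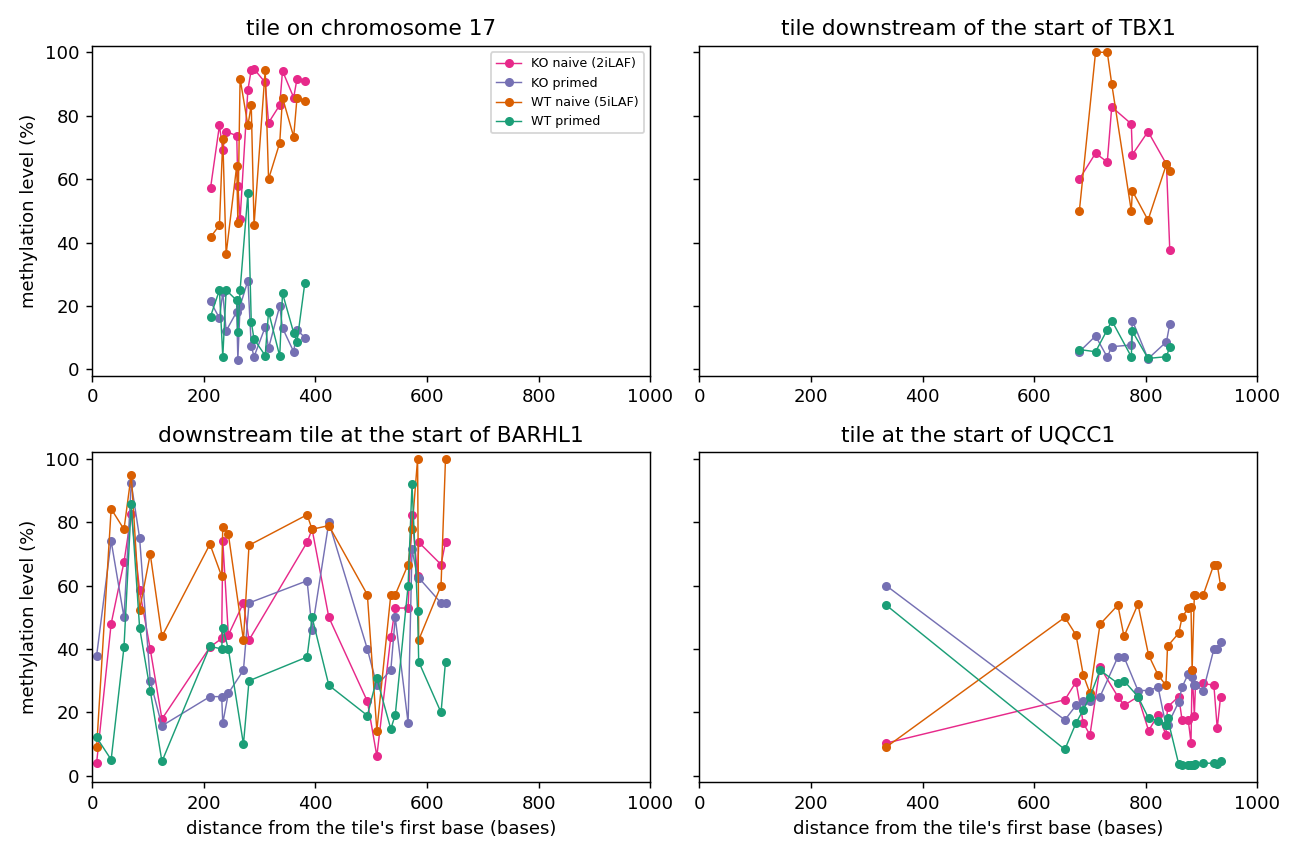
Methylation level (%) of each measured cytosine against its distance in bases from the start of its tile, for 4 gained tiles, in KO naive, KO primed, WT naive and WT primed cells; lines join neighbouring cytosines. On chromosome 17 and downstream of TBX1 both naive lines run above both primed lines at nearly every cytosine, while at UQCC1 WT naive runs above the other lines at most cytosines and KO naive mostly below KO primed.

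At the largest gains in KO only, among tiles with at least 10 cytosines, WT primed cells mostly stood above KO primed cells. The tile chr10:81359001-81360000 stood at 70.3% ± 13.5 in KO naive and 27.6% ± 20.2 in KO primed cells, and at 51.3% ± 14.4 in WT naive and 46.8% ± 25.2 in WT primed cells (11 cytosines). Of these 5 were called in KO and 1 in WT. The tile chr5:491001-492000 stood at 63.5% ± 18.9 in KO naive and 21.1% ± 8.83 in KO primed cells, and at 59.9% ± 34.6 in WT naive and 45.3% ± 23.5 in WT primed cells (24 cytosines). Further members lay beside it on chromosome 5. The tile chr5:493001-494000 gained in both genotypes, and chr5:497001-498000 in KO only, since 73.1% of its cytosines were higher in WT, with 72.4% in KO naive and 35.7% in KO primed cells, and 73.5% in WT naive and 45.8% in WT primed cells. At chr5:119087001-119088000 the WT libraries lay together, with 82.7% ± 9.01 in KO naive and 44.9% ± 27.7 in KO primed cells, against 38.3% ± 23.5 in WT naive and 41.0% ± 15.3 in WT primed cells (10 cytosines).

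The largest gains in WT only included tiles at which the KO primed library was already high. The tile chr19:45899001-45900000 stood at 61.8% ± 16.4 in KO naive and 61.8% ± 14.3 in KO primed cells, and at 62.8% ± 24.9 in WT naive and 9.07% ± 5.67 in WT primed cells (10 cytosines), so that WT primed alone was low. The tile chr3:119529001-119530000 had the same pattern, with 65.4% ± 16.1 in KO naive and 67.8% ± 22.3 in KO primed cells, and 78.7% ± 16.5 in WT naive and 34.8% ± 9.89 in WT primed cells (18 cytosines). In another the WT naive library alone was high. The tile chr22:46276001-46277000 stood at 33.9% ± 12.3 in KO naive and 26.4% ± 16.1 in KO primed cells, and at 67.7% ± 13.6 in WT naive and 28.3% ± 16.0 in WT primed cells (11 cytosines). In the next 2 tiles KO naive was above KO primed as well, by less. The tile chr5:153873001-153874000, with 28 cytosines, stood at 46.5% ± 20.2 in KO naive and 33.5% ± 28.1 in KO primed cells, and at 55.7% ± 23.2 in WT naive and 16.6% ± 24.7 in WT primed cells. Of its cytosines 2 were called higher in KO naive and 15 in WT naive. The tile chr12:132862001-132863000, with 22 cytosines, stood at 56.0% ± 20.4 in KO naive and 39.6% ± 18.9 in KO primed cells, and at 75.5% ± 24.1 in WT naive and 27.3% ± 17.03 in WT primed cells.

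A gained tile overlapped the window of a matched gene start in 22 cases (7.28% of members), compared with 1634 of all tiles (3.31%) and 269 (9.66%) of the tiles below 40% in WT primed cells. Of the 182 tiles gained in WT that were below 40% in WT primed cells, 16 (8.79%) did so. A matched start lay within 10 kb of 57 members (18.9%) and of 10.4% of all tiles, and of 25.3% of those 182 tiles and 20.6% of all tiles that low. These differences were not tested. Only starts whose promoter could be matched are known here, so another gene may lie nearer, and exons and introns were not assigned.

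Of these 22 tiles only that of SPOCK2, an extracellular proteoglycan, gained in both genotypes, with 45.0% ± 14.6 in KO naive and 16.9% ± 10.8 in KO primed cells, and 34.6% ± 25.6 in WT naive and 8.0% ± 3.80 in WT primed cells (6 cytosines). The tiles of SEMA4A, a semaphorin, PRKAR1B, a regulatory subunit of protein kinase A, and NR2F2, an orphan nuclear receptor, gained in KO only. At PRKAR1B the libraries of both genotypes moved alike, with 81.5% ± 14.2 in KO naive and 46.2% ± 22.6 in KO primed cells, and 84.0% ± 19.2 in WT naive and 45.4% ± 20.7 in WT primed cells. The WT gain of 38.6 points was left out since 77.8% of the 9 cytosines were higher. At NR2F2 the tile stood at 43.7% ± 25.2 in KO naive and 14.3% ± 9.20 in KO primed cells, and at 29.5% ± 17.2 in WT naive and 15.4% ± 11.3 in WT primed cells (10 cytosines).

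The remaining 18 gained in WT only. At UQCC1, an assembly factor of mitochondrial complex III, the tile stood at 21.6% ± 7.02 in KO naive and 29.7% ± 9.71 in KO primed cells, and at 45.8% ± 13.8 in WT naive and 14.7% ± 13.1 in WT primed cells (24 cytosines). Over the 18 CpGs capitalised in its sequence the levels spanned 10.5 to 33.3% in KO naive and 16 to 42.1% in KO primed cells, and 28.6 to 66.7% in WT naive and 3.45 to 30% in WT primed cells. At HOXA3, a homeobox transcription factor of the HOXA cluster, the 6 capitalised CpGs had medians of 20.9% in KO naive and 9.13% in KO primed cells, and 55.0% in WT naive and 17.4% in WT primed cells. The 8 CpGs of LRRC20, a gene named for its leucine-rich repeats, had medians of 31.2% in KO naive and 21.5% in KO primed cells, and 57.0% in WT naive and 14.3% in WT primed cells.

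BARHL1, a homeobox transcription factor of the developing nervous system and inner ear, had gained tiles on both sides of its start. The upstream tile stood at 23.7% ± 13.0 in KO naive and 12.8% ± 10.2 in KO primed cells, and at 47.5% ± 17.1 in WT naive and 15.4% ± 8.88 in WT primed cells (7 cytosines). The downstream tile, with 26 cytosines, stood at 52.3% ± 21.9 in KO naive and 46.8% ± 21.4 in KO primed cells, and at 65.8% ± 22.5 in WT naive and 35.6% ± 21.5 in WT primed cells. The shared start region of DUOX2, an oxidase that makes hydrogen peroxide for thyroid hormone synthesis, and DUOXA2, its maturation factor, stood at 30.9% ± 13.0 in KO naive and 11.7% ± 7.58 in KO primed cells, and at 39.7% ± 15.9 in WT naive and 9.23% ± 7.13 in WT primed cells. All 11 of its cytosines were higher in the naive library of each genotype. At LTC4S, leukotriene C4 synthase, KO naive was the lower of its pair, with 70.4% ± 16.0 in KO naive and 90.2% ± 17.3 in KO primed cells, and 77.0% ± 19.5 in WT naive and 46.7% ± 17.3 in WT primed cells (5 cytosines).

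The largest WT gain at a start, 42.0 points, was at TNFSF11, the cytokine RANKL of osteoclast formation, with 20.3% ± 9.28 in KO naive and 27.97% ± 13.8 in KO primed cells, and 58.1% ± 16.5 in WT naive and 16.2% ± 4.67 in WT primed cells (9 cytosines). DUSP22, a dual-specificity phosphatase, stood at 16.6% ± 5.20 in KO naive and 4.30% ± 2.26 in KO primed cells, and at 56.0% ± 23.4 in WT naive and 18.0% ± 4.34 in WT primed cells (9 cytosines). At both genes the measured cytosines lay in the tile but outside the matched 300 bases, as they did at CPEB1, NR2F2 and HBM. PAX9, a paired-box transcription factor of tooth and pharyngeal pouch development, stood at 21.5% ± 10.8 in KO naive and 29.8% ± 26.7 in KO primed cells, and at 43.8% ± 19.1 in WT naive and 12.5% ± 10.2 in WT primed cells (5 cytosines). The other tiles of this kind, at CPEB1, an RNA-binding regulator of polyadenylation, AKT2, a kinase of insulin signalling, HBM, a globin of the alpha cluster, TNFRSF8, the receptor CD30, TAPBPL with CD27-AS1, LOC124903842, LOC107987077 and LOC107985904, had WT gains of 25.3 to 39.4 points.

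**Figure D4:**
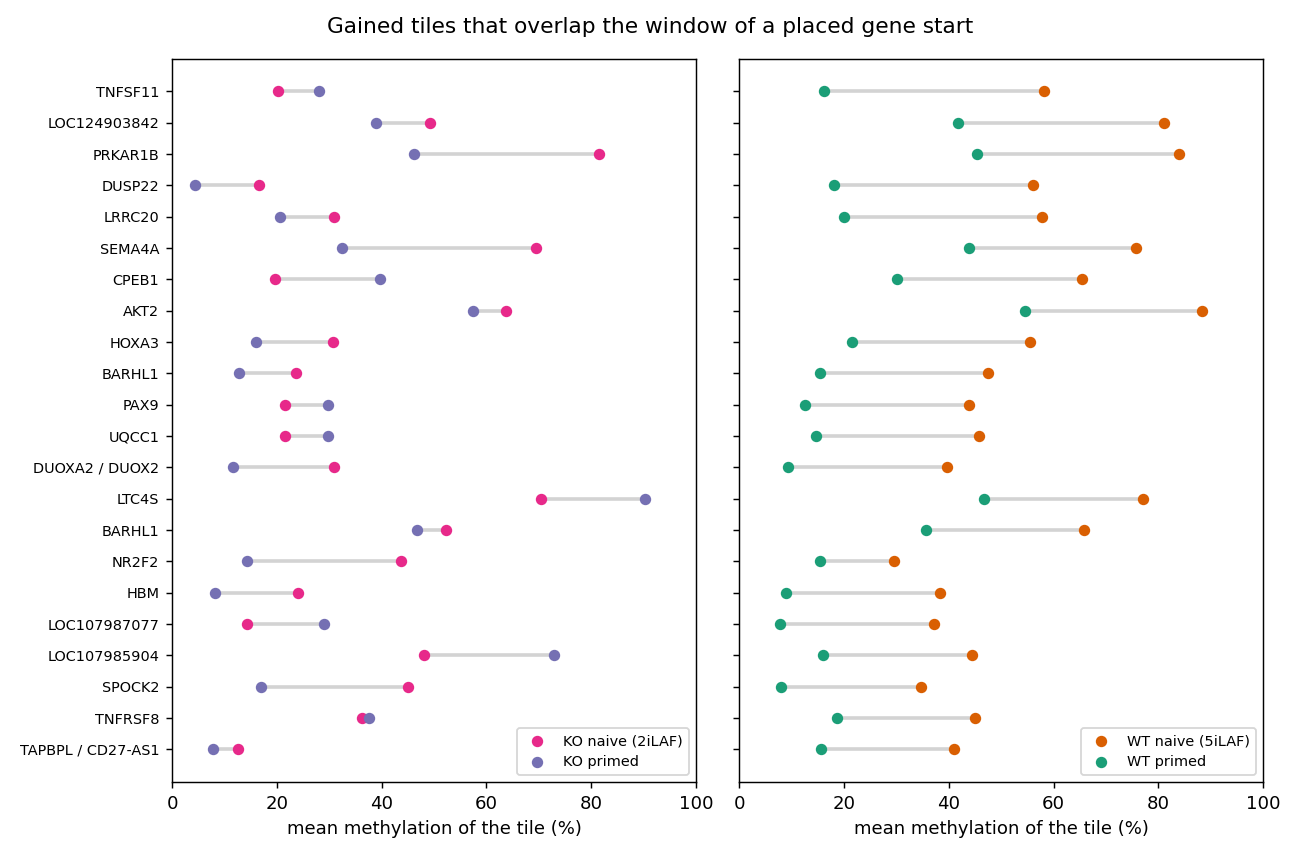
Mean methylation (%) of the 22 gained tiles at a matched gene start, in KO naive and KO primed cells (left) and WT naive and WT primed cells (right), ordered by the larger gain, with a grey line joining the 2 states. Naive lies right of primed in all 22 on the WT side, while on the KO side naive lies left of primed at TNFSF11, CPEB1, PAX9, UQCC1, LTC4S, LOC107987077, LOC107985904 and TNFRSF8.

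On chromosome 7, 19 measured tiles had a HOXA start as their nearest matched start, within 50 kb, and 6 of them (31.6%) were members, 1 gained in KO and 5 in WT. Over all tiles 0.611% were members, and over all tiles below 40% in WT primed cells, to which 15 of the 19 belong, 6.86% were. This group was noticed after the values were seen and was not tested. The KO one, chr7:27127001-27128000, stood at 56.2% in KO naive and 26.8% in KO primed cells, and at 53.3% in WT naive and 25.6% in WT primed cells. The tile 707 bases upstream of a HOXA7 start stood at 50.8% in KO naive and 57.8% in KO primed cells, and at 71.6% in WT naive and 22.03% in WT primed cells. The tile chr7:27185001-27186000 went opposite ways, with 39.98% in KO naive and 70.2% in KO primed cells, and 56.9% in WT naive and 25.3% in WT primed cells.

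No gained tile lay at a matched start of any gene in 4 lists that were looked up: imprinted genes (10 of 22 had a matched start), markers of naive cells (2 of 12), markers of primed cells (4 of 13, B3GALT5 not among them) and germ layer regulators (3 of 15). Over all genes 24 of the 4188 matched promoters lay at gained tiles, and 22 of the 1634 measured tiles at a matched start were members. A matched promoter need not overlap a measured tile, and how many listed ones did was not counted. With shares this small and so few listed genes matched, the lists cannot show whether these genes differ from others. Within 50 kb of a matched start of a listed gene there were 2 members, near the imprinted gene PLAGL1 and near ZIC5, a zinc finger transcription factor used as a primed marker. The tile 1426 bases downstream of the ZIC5 start stood at 25.2% in KO naive and 38.4% in KO primed cells, and at 62.7% in WT naive and 30.9% in WT primed cells (6 cytosines).

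Of the 302 members 10 formed 5 pairs of adjacent tiles, 1 pair gained in KO and 4 in WT. The KO pair, chr4:13524001-13526000, averaged 61.7% in KO naive and 25.9% in KO primed cells, and 50.8% in WT naive and 47.0% in WT primed cells over its 44 cytosines. The WT pairs included the BARHL1 start and chr5:1878001-1880000, within 5 kb of a start of IRX4, a homeobox gene. Tiles 1 kb to either side were measured for few members. Beside tiles gained in KO, 3 of 8 and 5 of 8 such neighbours were higher in KO naive, with mean KO differences of −5.44 and 4.66 points. Of these 1 on each side had itself gained in KO. Without them 2 of 7 and 4 of 7 were higher, with means of −10.7 and −0.38 points. Beside tiles gained in WT, 15 of 32 and 18 of 35 neighbours (46.9% and 51.4%) were higher in WT naive, with mean WT differences of −3.89 and 1.91 points. Of these 4 on each side had themselves gained in WT. With those left out 11 of 28 and 14 of 31 were higher, with means of −9.64 and −2.87 points. Over all tiles 4.93% were higher in KO naive and 8.6% in WT naive, with median differences of −20.3 and −20.6 points, so the neighbours lay between the members and the tiles at large, which was not tested. The neighbours that were not members had mean primed levels of 70.2% and 50.9% in KO primed cells beside tiles gained in KO. Beside tiles gained in WT these were 55.5% and 51.7% in WT primed cells. Over all tiles at 40 to 60% in the primed library the median difference was −14.2 points in KO and −13.0 in WT. At 60 to 80% it was −19.4 and −19.1 points. The part of the primed level in the neighbours' differences was not tested. The measured cytosines of a member spanned a median of 154 bases, against 181 over all tiles.

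**Figure D5:**
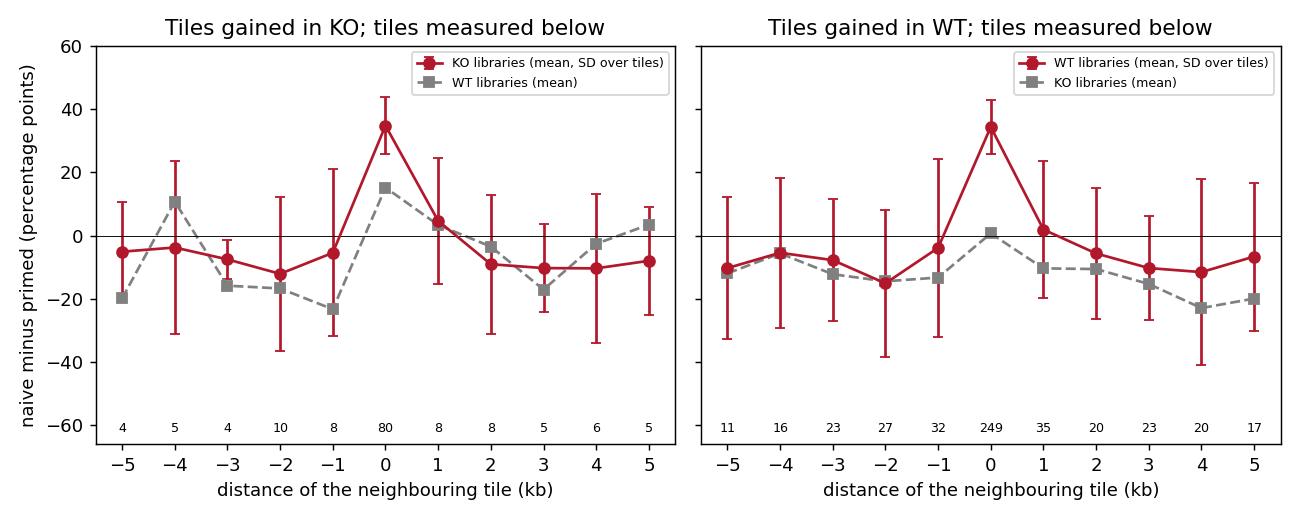
Mean naive minus primed difference (percentage points) of tiles 1 to 5 kb on either side of the tiles gained in KO (left) and in WT (right), with SD over tiles as bars and the number of measured tiles below; grey shows the other genotype. The peak at 0 is the tile the rule chose, and the means of the gaining genotype at the other distances lie between −15.1 and 4.66 points, above the all-tile medians of −20.3 in KO and −20.6 in WT. Neighbours that had themselves gained are included in these means.

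Members also differed from all tiles in features that the rule did not set directly. They held a median of 6 cytosines, against 7 over all tiles, and 57 (18.9%) had at least 10, against 32.5%. Of their cytosines 90.1% lay on the minus strand, against 77.3% over all tiles, and 256 members (84.8%) had minus-strand cytosines alone, against 63.3%. Depth was close to that of all tiles, at a median of 15.9 reads per cytosine in members and 16.2 over all tiles. It was lower than in tiles of like primed level. Below 40% in KO primed cells the median was 23.8 over all tiles and 17.7 in those gained in KO. Below 40% in WT primed cells it was 23.7 over all tiles and 17.2 in those gained in WT. None of the members had over 100 reads per cytosine, against 373 of all tiles. The share of tiles that were members ran from 0.159% on chromosome 13, with 2, to 0.988% on chromosome 21, with 9. The part of strand, of depth and of cytosine number in the gains was not tested.

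Around the threshold the values were continuous. The 5 KO gains just inside it ran from 25.1 to 25.5 points and the 5 just outside from 24.1 to 24.9. The 5 WT gains just inside ran from 25.004 to 25.3 points, the smallest at chr12:41480001-41481000, and the 5 just outside from 24.8 to 24.9.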

How the data were processed

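Genomic DNA of 4 H9 samples was bisulfite converted and captured with a methylation kit, with 99% conversion, per the labels' protocols. Per the submitters' processing notes the build was hg19 (GRCh37); alignment, calling and duplicate handling are steps not given in the sources used here. Per library the authors deposited a table of raw read counts per cytosine and strand and the level as a fraction; 0 listed rows had no methylated read. Levels were recomputed from the counts at cytosines with at least 5 reads in all 4 libraries, strands kept apart, and averaged with equal weight into 1 kb tiles. Simulated data with independent reads were used to check Fisher's exact test and the rule. They lack the extra variance seen between strands, so they give no error rate for these data. With 1 library per group no p-value compares conditions.

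The members, gene lists and rule for named tiles were chosen with earlier results of these data known. Named were tiles with at least 10 cytosines gained in both genotypes, the 10 largest gains per genotype, of which a selection is given, and all tiles at a matched start; other tiles are marked as singled out. An hg19 annotation was not used here. Of 33725 autosomal RefSeq promoters 20419 held at least 8 CpGs, and 4353 were matched with no conflict; 4188 (96.2%) had a matched neighbour with the same shift within 1000 bases and were kept, a filter added after seeing the data. Python 3.11.15, pandas 2.3.3, numpy 2.4.6 and scipy 1.17.1 were used. Alternatives were other read and cytosine minimums, read weighting, 5 drawn reads, filling in of unlisted cytosines at 0, summed strands and stricter thresholds.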

Additional observations from a re-analysis of the deposited data

Results flagged for a closer look

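At 11 of the named tiles the naive minus primed difference had opposite signs in KO and WT cells; with 1 library per group the difference between genotypes was not tested. Where the tile gained in KO, at chr5:119087001-119088000, the WT difference was −2.69 points. Where the tile gained in WT, the KO difference was −2.40 points at chr3:119529001-119530000 and −3.83 points at chr1:38757001-38758000. At matched gene starts it was −7.71 points at TNFSF11, −20.0 at CPEB1, −8.32 at PAX9, −8.16 at UQCC1, −19.7 at LTC4S, −14.7 at LOC107987077, −24.7 at LOC107985904 and −1.29 at TNFRSF8.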

How the results depend on the processing

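Several settings changed the number of tiles measured, so shares of those tiles are given beside the main 0.162% in KO and 0.504% in WT. With at least 10 reads per cytosine 19748 tiles were measured. Of these 42 gained in KO (0.213%), 98 in WT (0.496%) and 14 in both. WT was higher at 88.1% of the KO tiles and KO at 68.4% of the WT tiles, and 89 of 100 members still measured still gained. With at least 20 reads, of 4440 tiles measured 2 gained in KO (0.045%), 12 in WT (0.270%) and 0 in both. The other genotype was higher in 50% and 58.3%, and the left-out cytosines in 100% (KO) and 75% (WT). With at least 10 cytosines per tile, of 16064 tiles 17 gained in KO (0.106%), 44 in WT (0.274%) and 4 in both. Left-out cytosines were then higher in 92.9% of the KO tiles. With 5 reads drawn per cytosine 183 of the 302 members still gained, WT was higher at 58.9% of the KO tiles, and left-out cytosines in 65.2% (KO) and 82.6% (WT). With unlisted cytosines filled in at 0, of 55760 tiles 190 gained in KO (0.341%), 589 in WT (1.06%) and 88 in both. KO was then higher at 71.1% of the WT tiles. A threshold of 50 points left 6 in KO, 22 in WT and 2 in both, and all cytosines higher left 50, 156 and 14. Scaled reads left 0 of 639 calls in members, and 1 call higher in each genotype over all cytosines. Apart from the scaling, where the construction lowers the reads, and the stricter rules, the cause was not tested. The other 36 values changed less than their interval or 1.5 times, among them all under read weighting, summed strands and without cytosines over 100 reads. Some tiles still changed: 259 of the 302 members still gained under read weighting, and 261 of the 293 still measured with summed strands. No paired analysis was possible because each group holds 1 library. Depth limits the tiles: members rest on a median of 6 cytosines, and levels near 0 are not listed.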
